A study of Rattus norvegicus with 5 samples.

Results

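Members of the hypoxia-inducible factor pathway outside glycolysis, the 5 genes Bnip3, Stc1, Ndrg1, Ddit4 and Epas1, were followed in the lungs of Sprague Dawley rats after acute hypobaric hypoxia. The rows were found by gene symbol, with any bracketed record removed and case ignored, in the 9 distinct tables of differential expression that the authors deposited. All 5 symbols were found, among 1800 distinct symbols, in 14 of 4452 rows, and each had 1 row and 1 gene model wherever it was listed. The RNA sequencing covered 5 lung libraries, 1 per group. The reference was a normoxic male whose gasping time was not screened. The other 4 libraries came from rats that had earlier been sorted by when they first gasped under hypobaric hypoxia and that were, about a week later, held for 1 h at a simulated 9144 m. They were a susceptible male (first gasp before 5 min), a normal male (15 to 20 min), a tolerant male (after 45 min) and a tolerant female (after 1 h). Every exposed library therefore carries an earlier screening exposure that the normoxic one does not, and the tolerant female was compared with males throughout. The labels give neither the age of the rats nor whether a library was 1 animal or a pool.

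Hypoxia-inducible factor (HIF) is a pair of proteins in which an oxygen-regulated alpha subunit, HIF-1α or the HIF-2α encoded by Epas1, joins the stable subunit ARNT. Prolyl hydroxylases mark the alpha subunits for destruction while oxygen is present; in hypoxia the subunits accumulate and bind a short core motif, ACGTG or GCGTG, in their target genes. In lung, HIF-2α is best known from endothelial cells and alveolar type II cells. Among the targets, Bnip3 encodes a mitochondrial outer-membrane protein that recruits the autophagy machinery to mitochondria. Ddit4 encodes REDD1, an inhibitor of the growth-controlling kinase complex mTORC1, Ndrg1 a cytoplasmic stress-response protein, and Stc1 stanniocalcin 1, a secreted glycoprotein hormone first known from calcium control in fish.

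Each deposited table compares 1 library with another, and the fold is the ratio of a gene's proportion in the first library to that in the reference. A gene is listed only with a fold of at least 2 in either direction and an FDR-corrected p below 0.05, both as the authors computed them. A gene missing from a table has no value there, which is not evidence that it stayed level. With 1 library per group no value has a replicate error, and each p concerns a pair of libraries and not conditions. A fold that no table lists was derived, where possible, from 2 deposited folds against a shared library and has no p. The tables give no counts, so depth is unknown and no intervals or detection limits can be given. A lower value in whole lung cannot separate fewer cells of a type from less RNA per cell. Levels cannot be compared between genes, because the tables hold ratios only.

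Bnip3 and Stc1 were the members listed most often, and the values of all 5 genes are shown in the grid of log2 fold changes by comparison. Stc1 stood in 6 tables, Bnip3 in 4, Ndrg1 in 2, and Ddit4 and Epas1 in 1 each. Against normoxia every listed member was higher, with 2 of 5 in each of the 4 tables. Of all 1800 symbols, 5.72% were listed higher in the susceptible male, 23.3% in the normal male, 6.83% in the tolerant male and 7.44% in the tolerant female. The 5 symbols were chosen with these tables known and each is listed somewhere, so these shares are context and no test. The tables that contain the normal male library were several times longer than the others, at 590 to 1036 genes against 134 to 262.

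**Figure D1:**
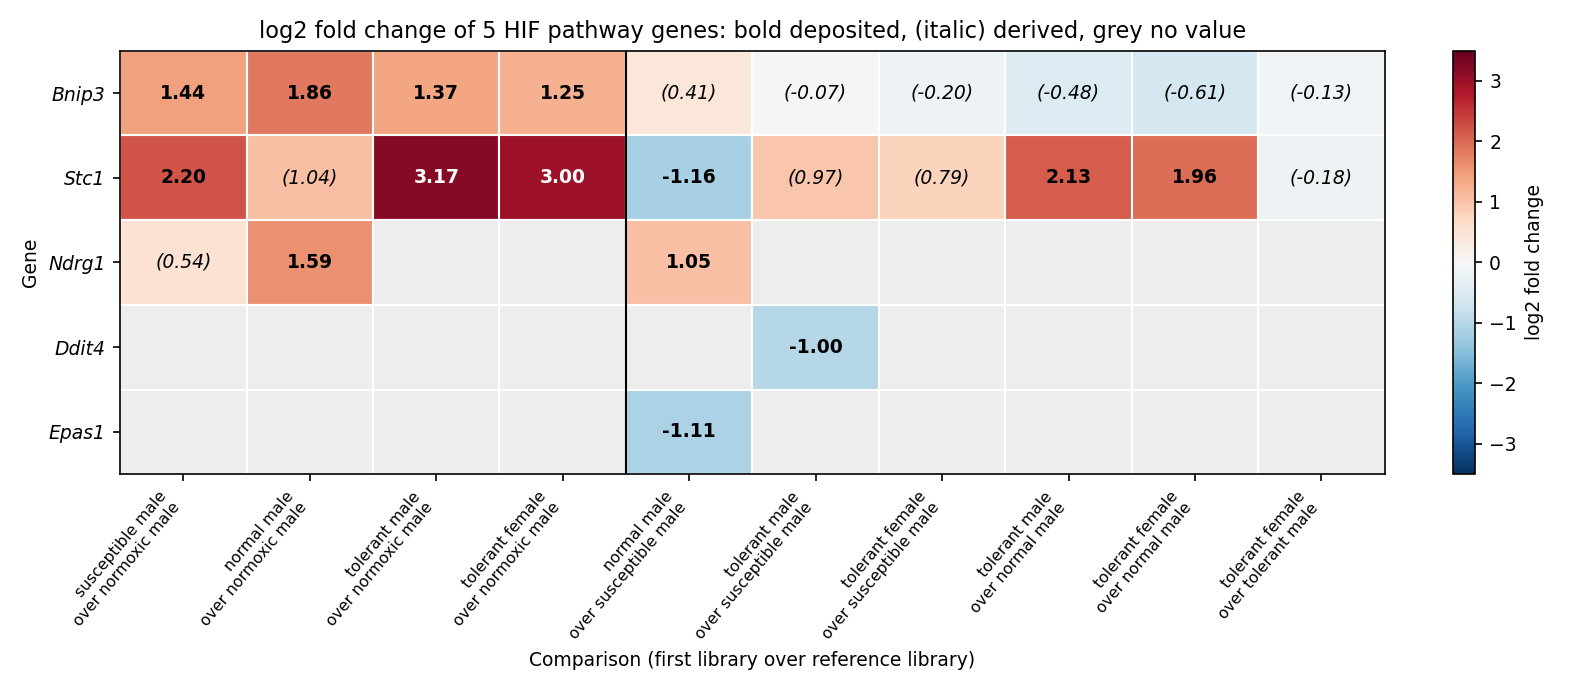
Each cell gives the log2 fold change of a gene (rows) in a pair of libraries (columns, first over reference); bold values are deposited, italic values in brackets were derived without a p-value, and grey cells have no value. Bnip3 and Stc1 are positive in all 4 columns against normoxia, from 1.25 to 1.86 and from 1.04 to 3.17, and the columns between exposed libraries hold the single values of Ddit4 and Epas1, both negative.

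Bnip3 was the only one of the 5 genes listed in all 4 tables against normoxia. It lies on chromosome 1, at 198683009 to 198700075 in the coordinates of the tables, whose build is not named. In the authors' deposited tables its fold over the normoxic male was 2.72 in the susceptible male (FDR-corrected p = 0.00467) and 3.62 in the normal male (p = 1.62e-06). The same deposited tables of the authors gave 2.59 in the tolerant male (FDR-corrected p = 0.00952) and 2.38 in the tolerant female (FDR-corrected p = 0.0456). The normal male was thus the high library and the tolerant female the low one, with a ratio of 1.52 between them. No table between exposed libraries listed Bnip3, and the folds derived for those pairs were all under the listing minimum. As larger over smaller, they ranged from 1.05 between the tolerant and susceptible males to that 1.52. The value of the tolerant female was close to the FDR limit and was the only Bnip3 entry that a limit of 0.01 would remove.

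Stc1 had the largest fold of the 5 genes in the 3 tables against normoxia that listed it. It lies on chromosome 15 at 49566885 to 49578936. The authors' deposited tables gave a fold of 4.61 for the susceptible male (FDR-corrected p = 3.38e-07), of 9.02 for the tolerant male and of 7.99 for the tolerant female, with a stored p of 0 for both tolerant libraries. The normal male was not listed, and its derived fold of 2.06 was the same through the susceptible male, the tolerant male and the tolerant female. That fold is just above the listing minimum of 2, so the gene had met the fold criterion and not the FDR criterion. The range over the 4 exposed libraries was 4.38-fold, against 1.52-fold for Bnip3.

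Between exposed libraries Stc1 was listed in each table that involved the normal male. In the authors' deposited tables it was 2.24-fold lower in the normal than in the susceptible male (FDR-corrected p = 0.00323). It was 4.38-fold higher in the tolerant male than in the normal male in the authors' deposited table, with an FDR-corrected value stored as 0. The tolerant female was 3.88-fold above the normal male in the authors' deposited table (FDR-corrected p = 2.25e-11). Over the susceptible male, the derived fold of the tolerant male was 1.96 and that of the tolerant female 1.73, both under the listing minimum. Between the tolerant female and the tolerant male, which no table compares, the derived ratio was 0.885. From high to low the libraries ran tolerant male, tolerant female, susceptible male, normal male and normoxic male. Of the neighbours in that order only the susceptible and normal males are listed as differing, and whether the others differ beyond animal-to-animal spread cannot be judged from 1 library each. The normal male was the lowest exposed library for Stc1 and the highest for Bnip3, as the plot of folds by library shows.

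**Figure D2:**
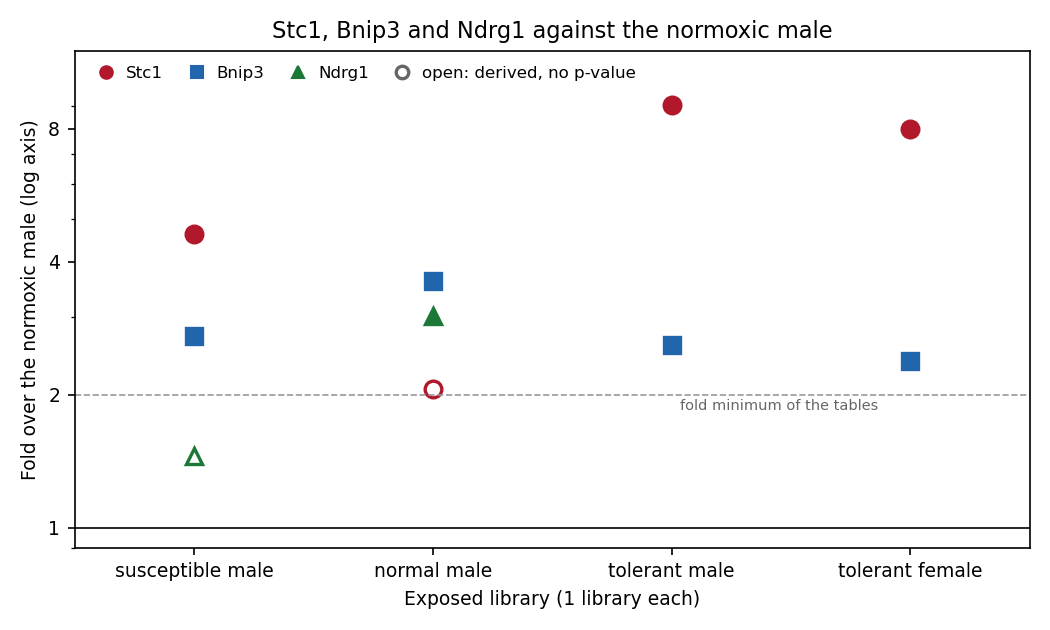
Fold over the normoxic male (log axis) of Stc1, Bnip3 and Ndrg1 in the 4 exposed libraries, 1 library each and so without error bars; filled symbols are deposited and open symbols derived. Stc1 spans 2.06 to 9.02 while Bnip3 stays between 2.38 and 3.62, and the dashed line marks the minimum fold of 2.

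The place of Bnip3 and Stc1 among the other listed genes also differed. Ranked by fold among the genes higher than in normoxia, Stc1 was number 31 of 103 in the susceptible male, 10 of 123 in the tolerant male and 13 of 134 in the tolerant female. Bnip3 was number 70 of 103, 199 of 419, 63 of 123 and 100 of 134 in the susceptible, normal, tolerant male and tolerant female libraries. The median fold of all genes listed higher was 3.16, 3.45, 2.61 and 2.87 in the same order. Stc1 exceeded that median wherever it was listed, and Bnip3 exceeded it in the normal male alone.

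**Figure D3:**
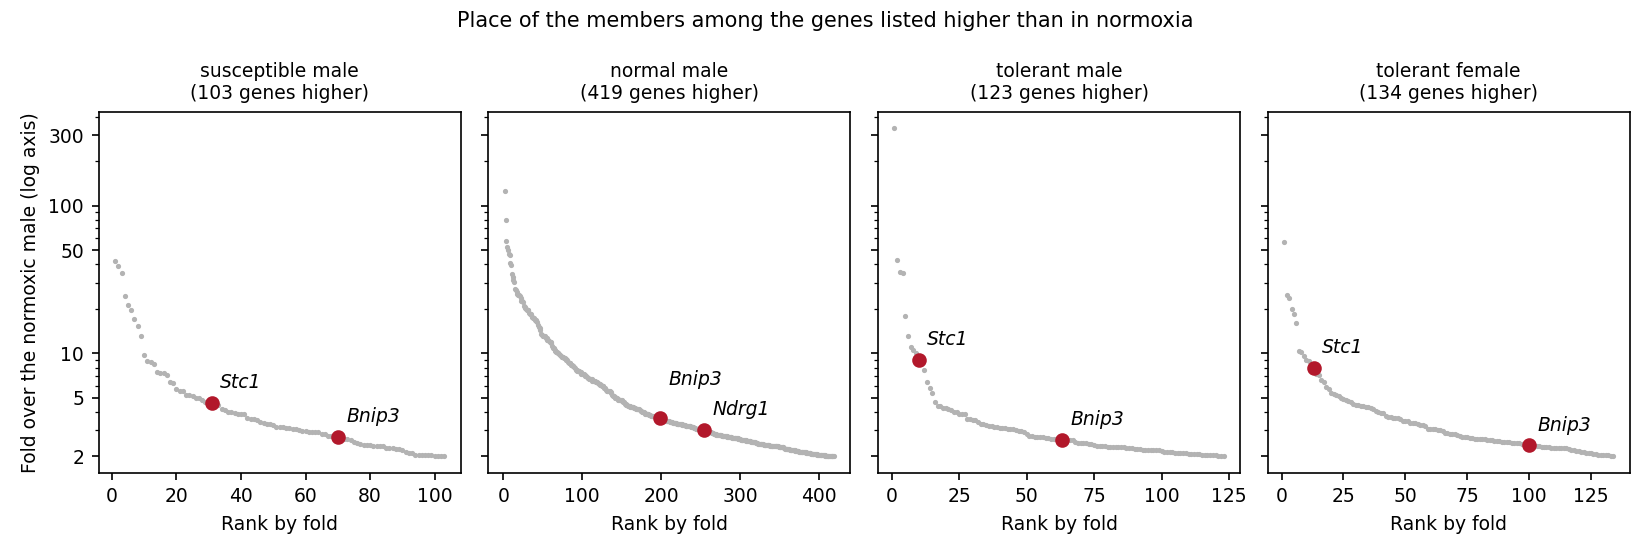
Genes listed higher than in the normoxic male, ordered by fold (log axis), in 1 panel per exposed library; grey points are all listed genes with a finite fold and red points the members. Stc1 sits near the top in both tolerant libraries (rank 10 of 123 and 13 of 134), whereas Bnip3 and Ndrg1 lie in the middle or lower part.

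Ndrg1 was listed in the normal male only, and higher there than in both comparison libraries. The gene lies on chromosome 7 at 104302037 to 104344922. The authors' deposited tables gave 3.02-fold over the normoxic male (FDR-corrected p stored as 0) and 2.07-fold over the susceptible male (p = 1.63e-11). Together these put the susceptible male at 1.45-fold over the normoxic male, a derived value under the listing minimum. The tables hold no value for Ndrg1 in either tolerant library. In the comparison of the normal with the susceptible male, 35.1% of the 1800 symbols were listed higher and 22.4% lower, so a listing in this table is common. Ndrg1 ranked 254 of 419 and 598 of 632 among the genes listed higher in its 2 tables.

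Epas1, the member that encodes a HIF subunit itself, was listed once and in the opposite direction to Ndrg1. It lies on chromosome 6 at 10202575 to 10299238 and was 2.16-fold lower in the normal than in the susceptible male in the authors' deposited table (FDR-corrected p stored as 0). Stc1, at 2.24-fold lower, was the other member on the lower side of that table, which makes 2 of 5 members lower and 1 higher. None of the 4 tables against normoxia listed Epas1, so the tables do not show which of these 2 males was nearer to the normoxic level. Of 10 endothelial markers, 2 were listed in the same table and both were lower, beside 22.4% of all symbols. They were Ramp2, a partner of the adrenomedullin receptor, at 2.12-fold and Plvap, a protein of endothelial fenestrae, at 2.06-fold in the authors' deposited table. Against normoxia, 2 other markers of the 10 were lower in the normal male, beside 25.0% of all symbols. These were Calcrl at 2.18-fold and Emcn at 2.02-fold in the authors' deposited table. Pecam1, Cdh5 and Kdr, which also define endothelium, were in none of the 9 tables. The part of endothelial cells in the Epas1 value was not tested.

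Ddit4 was listed once too, between the tolerant and the susceptible male. It lies on chromosome 20 at 27252273 to 27254402 and was 2.01-fold lower in the tolerant male in the authors' deposited table (FDR-corrected p = 8.04e-08). The fold barely passed the minimum, at rank 60 of 61 among the genes listed lower, and 3.39% of the 1800 symbols were on that side of the table. No other pair of libraries has a Ddit4 value, and none can be derived. Plvap was the 1 endothelial marker in this table, 2.01-fold lower in the authors' deposited table, and its part in the Ddit4 value was not tested. In the comparisons of the tolerant male and the tolerant female with the normal male, where Stc1 was the 1 member listed, 15.3% and 11.6% of the symbols were listed higher. No member was listed between the tolerant female and the susceptible male.

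The promoters of Bnip3, Ddit4 and Epas1, the members matched in the RefSeq promoter table, are printed, and they differ in the HIF core motif. RefSeq gives them on the rat assembly GRCr8, from 250 bases before the start of the gene to 50 after it, and all 3 lie on the minus strand. Capitals mark the letters ACGTG or GCGTG found on either strand, where the reverse strand reads CACGT or CACGC.
Bnip3, chr1:203154913-203155212: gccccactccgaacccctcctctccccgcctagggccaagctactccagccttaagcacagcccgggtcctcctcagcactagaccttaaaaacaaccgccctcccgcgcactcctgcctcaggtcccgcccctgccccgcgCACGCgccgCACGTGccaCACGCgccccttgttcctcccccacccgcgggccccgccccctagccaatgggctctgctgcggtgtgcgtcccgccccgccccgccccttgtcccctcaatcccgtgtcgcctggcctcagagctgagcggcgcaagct
Ddit4, chr20:28436988-28437287: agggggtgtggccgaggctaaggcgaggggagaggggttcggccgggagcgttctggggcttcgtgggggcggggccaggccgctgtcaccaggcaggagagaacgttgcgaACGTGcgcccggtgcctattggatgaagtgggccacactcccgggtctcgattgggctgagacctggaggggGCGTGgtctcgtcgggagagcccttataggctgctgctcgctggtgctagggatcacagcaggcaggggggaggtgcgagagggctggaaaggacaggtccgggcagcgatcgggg
Epas1, chr6:13624680-13624979: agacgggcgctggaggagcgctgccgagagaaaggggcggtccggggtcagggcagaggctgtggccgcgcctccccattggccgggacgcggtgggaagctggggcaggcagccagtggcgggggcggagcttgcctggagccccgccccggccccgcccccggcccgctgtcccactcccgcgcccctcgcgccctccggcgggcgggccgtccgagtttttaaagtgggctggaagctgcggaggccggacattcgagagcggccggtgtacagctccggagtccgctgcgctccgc
The Bnip3 window held 4 matches between positions -108 and -86 from the start, where -1 is the base just before the gene. They are ACGTG at -98 to -94 on the gene's strand, its overlapping reverse copy at -99 to -95, which together form the palindrome CACGTG, and GCGTG on the other strand at -108 to -104 and -90 to -86. The Ddit4 window held ACGTG at -138 to -134 and GCGTG at -66 to -62, both on the gene's strand. The Epas1 window held neither motif. Of 33469 rat promoters of the same length, 19.3% held ACGTG, 29.7% GCGTG and 41.6% at least 1 of the 2, while 19.2% had 2 or more matches and 3.46% had 4 or more. The palindrome was in 6.42%. The GC content of the 3 windows was 71.3%, 68.3% and 75.7%, against a median of 51.7% over all promoters. A match describes letters and does not show binding.

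Genes of the HIF machinery itself were also followed. Of 15 genes for HIF subunits and oxygen sensing, among them Hif1a, Arnt, Vhl and the hydroxylase genes Egln1, Egln2 and Egln3, Epas1 was the 1 that any table listed. The number of genes tested is not given, so whether this count is low cannot be judged, and the unlisted genes have no value. Matching used only the symbols of each list, so a gene deposited under an older symbol would count as unlisted. A list of 44 HIF targets without the glycolytic enzymes holds Bnip3, Stc1, Ndrg1 and Ddit4, and also Pfkfb3 and Pfkfb4, which encode regulators of glycolytic rate. Of the 44 genes, 14 were in at least 1 table. Against normoxia 6 of the 44 were higher and 0 lower in the susceptible male, where 5.72% of the 1800 symbols were higher and 8.56% lower. In the normal male 6 were higher and 3 lower, beside 23.3% and 25.0% of the symbols. In the tolerant male 8 were higher and 1 lower, beside 6.83% and 7.72%, and in the tolerant female 8 and 0, beside 7.44% and 6.39%. These percentages are over symbols that some table lists, whereas a list also holds genes that none lists, so they describe each table and are not a matched share. The median log2 fold of the listed targets was 2.05, 1.32, 1.37 and 1.71 in that order, beside -1.36, -1.03, -1.08 and 1.07 for all genes listed in the same tables. Since folds under 2 are not listed, the sign of these latter medians only shows which direction had more genes. For the genes listed higher alone, the medians were 1.66, 1.79, 1.39 and 1.52. The target medians include the 3 lower targets in the normal male and the 1 in the tolerant male. The target counts and medians also include the listed members, which were chosen with these tables known. Without the members, 4 (susceptible male), 7 (normal male), 7 (tolerant male) and 6 (tolerant female) of the 44 were listed in either direction. The 4 tables share the normoxic library, so they are not separate evidence.

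The target genes that went with Stc1 and those that did not are seen in the grid of HIF targets by comparison. Edn1, which encodes the vasoconstrictor endothelin 1, was higher than in normoxia in 3 exposed libraries, at 3.88-fold (susceptible male), 2.62-fold (tolerant male) and 3.68-fold (tolerant female), and 2.50-fold lower in the normal male in the authors' deposited tables. Pfkfb3 was higher than in normoxia by 2.84-fold (susceptible male), 2.02-fold (tolerant male) and 2.51-fold (tolerant female) in the authors' deposited tables, and was not listed for the normal male. It was 2.97-fold lower in the normal than in the susceptible male in the authors' deposited table, a direction it shared with Stc1. Apln, which encodes the vessel peptide apelin, was higher than in normoxia by 3.68-fold (normal male), 3.08-fold (tolerant male) and 3.48-fold (tolerant female) in the authors' deposited tables. Unlike Stc1, it was 2.47-fold higher in the normal than in the susceptible male there. Angpt2, a ligand of vessel remodelling, was 41.9-fold lower in the normal male than in normoxia (FDR-corrected p = 0.000644) in the authors' deposited table. In the table that lists Epas1, 4 of 18 genes linked to Epas1 in lung vessels, Epas1 among them, were lower and 1, Apln, was higher. Of the 1800 symbols, 22.4% were lower and 35.1% higher there, and nothing is read from these counts. The lower genes were Angpt2 at 28.0-fold, Edn1 at 9.69-fold and Cxcl12 at 4.59-fold besides Epas1 in the authors' deposited table. Cxcl12 and Bhlhe40 occur with 2 gene models each in the tables, so their folds chain only between tables that list the same model.

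**Figure D4:**
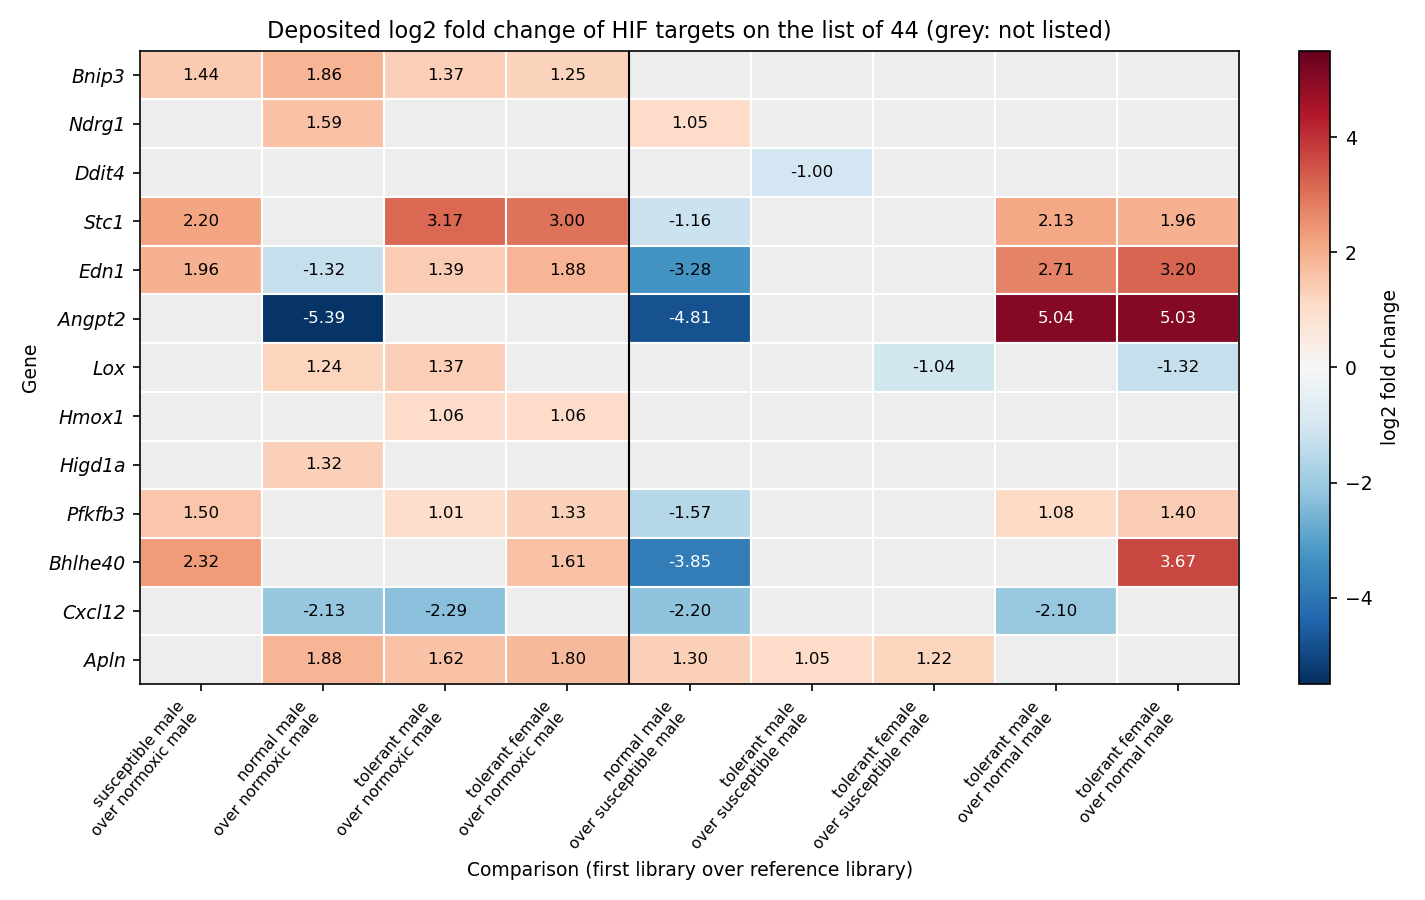
Deposited log2 fold changes of the listed genes among 44 HIF targets (rows) in the 9 comparisons (columns, first library over reference), with grey where a gene was not listed; 1 listed gene is not drawn. Stc1 (-1.16), Edn1 (-3.28), Pfkfb3 (-1.57) and Bhlhe40 (-3.85) are all negative in the normal over the susceptible male, where Ndrg1 (1.05) and Apln (1.30) are positive. The rows of Bhlhe40 and Cxcl12 mix 2 gene models across columns, and where a comparison lists both models the larger absolute fold is drawn.

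Among partners of Bnip3 and Ddit4, 4 of 19 mitophagy genes and 2 of 22 mTORC1 genes were in any table, Bnip3 and Ddit4 included. The number of genes tested is not given, so whether these counts are low cannot be judged. Of 19 mitophagy genes, Bnip3 was the 1 listed in the susceptible, tolerant male and tolerant female libraries against normoxia. In the normal male, Map1lc3b, which encodes an autophagosome membrane protein, was 10.2-fold higher and the mitophagy receptor gene Fundc1 3.41-fold lower (FDR-corrected p = 0.0483) beside Bnip3 in the authors' deposited table. Bcl2l1, an inhibitor of cell death whose product binds BNIP3, was 6.64-fold higher in the normal than in the susceptible male in the authors' deposited table. Of 22 genes of the mTORC1 pathway, Ddit4 and Txnip, which encodes a redox-linked protein, were the 2 listed. Txnip was 2.60-fold lower in the same comparison as Ddit4 and 2.91-fold higher in the susceptible male than in normoxia in the authors' deposited tables. Other members of the Ndrg and stanniocalcin families, Ndrg2, Ndrg3, Ndrg4 and Stc2, were in no table.

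Ddit4 and Ndrg1 also respond to glucocorticoids or cell stress, and 17 such inducible genes were followed. In the table that lists Ddit4, 1 was higher, the transcription factor gene Zbtb16 at 3.23-fold, and 2 were lower, Txnip and the phosphatase gene Dusp1 at 2.29-fold, in the authors' deposited table. Of all symbols, 4.06% were higher and 3.39% lower there. Beside Ndrg1 in the normal male over normoxia, 5 of the 17 were higher and 0 lower, where 23.3% of all symbols were higher. Among them were the metallothionein gene Mt1a at 9.75-fold, the chaperone gene Fkbp5 at 4.36-fold and the cell-cycle inhibitor Cdkn1a at 4.30-fold in the authors' deposited table. Mt2A, also a metallothionein gene, has 2 gene models there, at 46.7-fold (FDR-corrected p = 0.00758) and 8.06-fold (FDR-corrected p = 7.01e-05) in the authors' deposited table, and metallothionein copies can share reads. The normal over the susceptible male, which also lists Ndrg1, had 3 of the 17 higher and 3 lower, beside 35.1% and 22.4% of all symbols. Cdkn1a was 3.96-fold lower there in the authors' deposited table. Against normoxia, 7 (susceptible male), 5 (tolerant male) and 9 (tolerant female) of the 17 were higher and 0 lower, without Ndrg1 being listed. Of all symbols, 5.72%, 6.83% and 7.44% were listed higher there in that order, and 8.56%, 7.72% and 6.39% lower. A pattern particular to Ndrg1 is therefore not read from these counts.

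Genes with the pattern most like Bnip3 and Stc1 were sought by the Euclidean distance of log2 folds over the 4 exposed libraries, all against the same normoxic library, among 203 other named genes with 4 known folds. Nearest to Bnip3 were Nid67 at a distance of 0.25, Nov at 0.31 and Rgc32 at 0.64. Nov, a matricellular protein gene of the CCN family, was 2.48-, 4.18-, 2.83- and 2.63-fold higher in the susceptible, normal, tolerant male and tolerant female libraries in the authors' deposited tables, with its high value in the normal male as for Bnip3. No gene came as close to Stc1, for which the nearest were Garp at 1.71, the EGF receptor inhibitor gene Errfi1 at 1.71 and the pseudokinase gene Trib3 at 1.82. In the authors' deposited tables, Garp had folds of 4.11, 2.01, 3.10 and 4.87 in that order, and like Stc1 it was lowest among exposed libraries in the normal male. Distances grow with the size of a fold, so those of Stc1 and Bnip3 are not on an equal footing. Ndrg1, Ddit4 and Epas1 lack 4 folds and were not compared.

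Markers of other tissues moved in the same comparisons. All 8 heart muscle markers, such as Myh6 and Mb, were lower than in normoxia in the susceptible male, the tolerant male and the tolerant female, and 7 of 8 in the normal male. Their median log2 fold was -2.95, -6.66, -2.13 and -2.62 in the order just given. Of all symbols, 8.56%, 7.72%, 6.39% and 25.0% were listed lower in that order. Bnip3 and Stc1 were higher in each of these libraries, Stc1 in the normal male by a derived fold that was not listed. The part of heart muscle tissue in the Bnip3 and Stc1 values was not tested. Of 9 smooth muscle and fibroblast markers 4, of 6 macrophage markers 2 and of 5 red cell markers 3 were listed in some table. None of the 14 alveolar type I and type II markers was listed anywhere, and since the tables hold no levels, the lung label itself could not be checked against them.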

How the data were processed

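Lung RNA from TriReagent extracts was sequenced from Illumina TruSeq libraries on the Genome Analyzer IIx instrument, as the labels state. The deposited fold is a signed score, per the file headers: positive is the first library over the reference, negative is minus the reference over the first. The p-value is FDR-corrected by the authors, per the file headers, and a stored 0 is below the stored precision. The sources used here name no aligner, counting method, build or test. Of 11 tables, 2 were identical copies and were left out, leaving 4 against normoxia and 5 between exposed libraries.

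With Python 3.11.15, folds were turned into log2, the row with the largest absolute fold was used per symbol, and missing folds were derived through a shared library at the same locus. Of 489 derived folds with a deposited counterpart, 489 agreed within 0.001 on the log2 scale. The derivation was also tested on simulated data. Of 1328 named symbols, 1309 were in the RefSeq table of GRCr8 by symbol or synonym. Genes of the lists and markers were matched by the given symbol alone, so one deposited under an older symbol counts as not listed. Background shares use the 1800 symbols of any table, since the number of genes tested is not given here. The members and gene lists were chosen with earlier results of these data known. Named are the members, up to 4 genes of each list and table, and the 3 genes nearest to a member. Values outside this rule, chosen after they were seen, are those of Pfkfb3 and that of Edn1 in the normal male over normoxia. The text prints those that stand beside a member's result; 1 HIF target that the rule names is not reported here and is counted throughout. No test between conditions was possible with 1 library per group.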

Additional observations from a re-analysis of the deposited data

Results flagged for a closer look

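Edn1, a HIF target that is not 1 of the 5 genes, went in opposite directions against the same normoxic library. In the authors' deposited tables its signed fold was 3.88 in the susceptible male, 2.62 in the tolerant male and 3.68 in the tolerant female, but -2.50 in the normal male. The authors' deposited tables also compare the exposed libraries directly, with Edn1 at -9.69 in the normal over the susceptible male, 6.55 in the tolerant male over the normal male and 9.18 in the tolerant female over the normal male, each with an FDR-corrected value stored as 0. These compare pairs of libraries, and a difference between conditions was not tested. Bnip3 and Stc1, the members with a fold over normoxia in all 4 exposed libraries, were higher in each. For Stc1 the fold in the normal male was derived and not listed. No group had enough libraries to look for a sample far from the others.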

How the results depend on the processing

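The 14 deposited member folds were the same when the row with the smallest absolute fold was used. They could not have differed, because each member had 1 row wherever it was listed. The 4 derived folds of Stc1 were the same through each of their 5 further paths. Ratios of the same library proportions give this by construction, so it checks the arithmetic only. No deposited member fold could be set beside a derived one, since no 3 tables that link the same libraries all list a member. Members were listed 8 times against normoxia and 6 times between exposed libraries. A fold of at least 4 left 3 and 1 of these, all Stc1. Without the normal male library 6 and 1 were left, the 1 being Ddit4. An FDR-corrected p of at most 0.01 left 7 and 6, and a chromosome as in RefSeq left 8 and 6. Over the 9 tables, a fold of at least 4 took the entries of the HIF subunit list from 1 to 0, of the list of 44 HIF targets from 55 to 22, of glycolytic targets from 7 to 1, of mitophagy genes from 12 to 7, of mTORC1 genes from 4 to 0, of the Ndrg and stanniocalcin families from 8 to 4, of Epas1-linked genes from 29 to 13 and of stress inducers from 49 to 19. An FDR-corrected p of at most 0.01 took glycolytic targets from 7 to 4. These stricter limits remove entries by construction. No paired analysis was possible because each group is 1 library. Depth is unknown, sex is confounded with tolerance in the female, and screening with exposure in all 4 exposed libraries.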

Other observations

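Of 17 glycolytic HIF targets 6 were in any table. In the normal male over normoxia, 4 of the 17 were higher and 0 lower, in a table that lists 23.3% of the 1800 symbols as higher, so the count is not read as a result about these genes. The authors' deposited table gave the lactate transporter gene Slc16a3 at 6.37-fold, Pdk1, which encodes an inhibitory kinase of pyruvate dehydrogenase, at 2.25-fold, the phosphofructokinase gene Pfkl at 2.05-fold and the glucose transporter gene Slc2a1 at 2.01-fold. The other 3 tables against normoxia listed none of the 17, but each listed Pfkfb3, a regulator of glycolytic rate on the other list, as higher. Over the susceptible male, the authors' deposited tables gave Eno1, an enolase gene, as 2.80-fold and the hexokinase gene Hk2 as 2.04-fold higher in the normal male, and Hk2 as 2.27-fold higher in the tolerant female. Of the 44 other HIF targets, 34 were matched in the RefSeq promoter table, and 79.4% of these held ACGTG or GCGTG in that window, against 41.6% of all promoters, a difference that was not tested.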
